A study of Mus musculus with 4 samples.

Results

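The genes described here serve peptide presentation on major histocompatibility complex (MHC) class II, and 8 were chosen by name: H2-Aa, H2-Ab1, H2-Eb1, H2-DMa, H2-DMb1, H2-Oa, Cd74 and Ciita. Of these, 7 had at least 1 probe set that the platform annotation assigns to 1 gene, out of 18193 such genes on the array, and all 7 passed the filter on low values. H2-DMb1 is listed only together with its neighbour H2-DMb2. The samples were RNA labelled as bone marrow-derived cells of the fibrotic liver of C57BL/6 mice, 2 arrays with granulocyte colony-stimulating factor (G-CSF) and 2 with phosphate-buffered saline (PBS). All mice, controls included, had received carbon tetrachloride, a liver toxin, at 1 ml/kg in 30 injections. In the last 7 days the G-CSF mice were given the recombinant human protein at 100 µg/kg, and the PBS mice were given PBS with 0.1% mouse serum albumin. The labels give neither the age of the mice, nor how the cells were collected, nor whether the 2 samples of a group came from separate animals, so p-values measure only the spread between these arrays.

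MHC class II molecules are pairs of an α and a β chain that carry peptides from endocytosed proteins to the cell surface, where CD4 T cells read them. Dendritic cells, B cells and macrophages, including the Kupffer cells of the liver, are the main cells that make them. Cd74, the invariant chain, fills the groove of a new molecule and guides it to the endosome, H2-DM exchanges the remnant of Cd74 for peptide, and H2-O holds H2-DM back. Transcription of the whole group depends on Ciita, a coactivator with no DNA binding of its own, which joins the RFX complex and NF-Y on paired promoter elements called the X box and the Y box. C57BL/6 mice carry the H2 haplotype b, in which H2-Ea is defective, so they display I-A (H2-Aa with H2-Ab1) and no I-E (H2-Ea with H2-Eb1).

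Promoter sequence from RefSeq (GRCm38.p6, 250 bases before to 50 after an annotated start) was matched for 5 of the 8 genes. The stretches below are printed because they hold letters that match the X and Y elements, the kind of element through which Ciita acts. Capitals mark GNAAC, the core of the X box as searched, and ATTGG, the Y box. They read 5′ to 3′ on the strand of the gene, at chr17:34287855-34287928 (− strand) for H2-Aa, chr17:34305752-34305824 (+ strand) for H2-Eb1, chr17:34153073-34153146 (+ strand) for H2-DMb1 and chr17:34092279-34092352 (+ strand) for H2-Oa.
H2-Aa: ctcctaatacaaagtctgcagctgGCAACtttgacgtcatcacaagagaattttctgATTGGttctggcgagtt
H2-Eb1: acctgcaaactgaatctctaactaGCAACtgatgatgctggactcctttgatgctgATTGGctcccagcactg
H2-DMb1: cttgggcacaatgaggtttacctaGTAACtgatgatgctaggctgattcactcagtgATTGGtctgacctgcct
H2-Oa: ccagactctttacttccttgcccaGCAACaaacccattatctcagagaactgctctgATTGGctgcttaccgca

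The gap between the capitals was 28 bases in H2-Aa, H2-DMb1 and H2-Oa and 27 bases in H2-Eb1. The Y box ended 38 to 56 bases before the start site. GNAAC followed by ATTGG at a gap of 20 to 40 bases, on either strand, stood in 3.41% of all 32851 promoters of this length, and ATTGG alone on either strand in 37.4%. The letters and the gap were chosen with these promoters in view. Neither of the 2 H2-DMa promoters held the pair in this window. A match is a description of the letters, and binding was not measured.

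The arrays were not alike before any gene was considered. PBS replicate 1 correlated with the other 3 at a Pearson r of 0.813 to 0.844 over 12187 tested genes, whereas PBS replicate 2 and the G-CSF arrays correlated at 0.939 to 0.974. The summed signal of 11 T cell markers was 4957 and 3592 with G-CSF, against 17662 in PBS replicate 1 and 3430 in PBS replicate 2. Differences are therefore also given against each PBS array alone. The Gapdh control gave 3′-to-5′ ratios, a measure of RNA quality, of 20.2 and 19.1 with G-CSF, against 15.7 and 14.8 with PBS, and so separated the groups. Their part in the results was not tested.

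No member passed the test between G-CSF and PBS. For all 7, limma gave a Benjamini-Hochberg adjusted p of 0.988 over 12187 genes, and the smallest unadjusted p was 0.0986, for Cd74. Over the whole array 0 genes passed in either direction (0.0% higher and 0.0% lower), and 429 had an unadjusted p below 0.05. An exact two-sided permutation test of a single gene would give at least p = 0.33 in this design, so it could not pass. The values of the members are thus given as levels and differences. A signal is the authors' MAS5 intensity, a difference is the G-CSF mean minus the PBS mean of log2(signal + 23) with its standard error (SE, n = 2 arrays per group), and this scale understates changes of weak genes.

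The chains of I-A overlapped between treatments. H2-Aa, the I-A α chain, had signals of 36354 and 32880 in G-CSF replicates 1 and 2, against 22453 and 37762 in PBS replicates 1 and 2. Both G-CSF arrays lay between the PBS arrays. In bulk RNA, fewer cells of a type and less RNA per cell cannot be told apart. The difference was 0.25 ± 0.34, with a 95% interval of −0.61 to 1.11 (0.62 against PBS replicate 1 alone and −0.13 against PBS replicate 2 alone). H2-Ab1, the I-A β chain, had 4643 and 3593 with G-CSF, against 2356 and 5139 with PBS. The order of the arrays was the same, with PBS replicate 1 lowest and PBS replicate 2 highest. Its difference was 0.23 ± 0.48 (0.79 against PBS replicate 1 and −0.33 against PBS replicate 2).

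This order held for all 4 H2-Aa and all 3 H2-Ab1 probe sets. PBS replicate 1 was the lowest and PBS replicate 2 the highest array for each of these 7, while 21.8% of all tested genes showed that order. Probe sets of 1 gene share a target, so they are not separate measurements of the treatment. Their differences ran from −0.15 to 0.52, with 5 of 7 above 0, and the mean of the H2-Ab1 probe sets differed by 0.09.

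H2-Eb1, the β chain of I-E, is transcribed in this strain although its partner is defective. It had signals of 4814 and 8359 with G-CSF, against 2747 and 5892 with PBS. PBS replicate 2 lay between the G-CSF arrays, so the groups overlapped. The difference was 0.65 ± 0.52 (1.20 against PBS replicate 1 and 0.11 against PBS replicate 2).

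**Figure D1:**
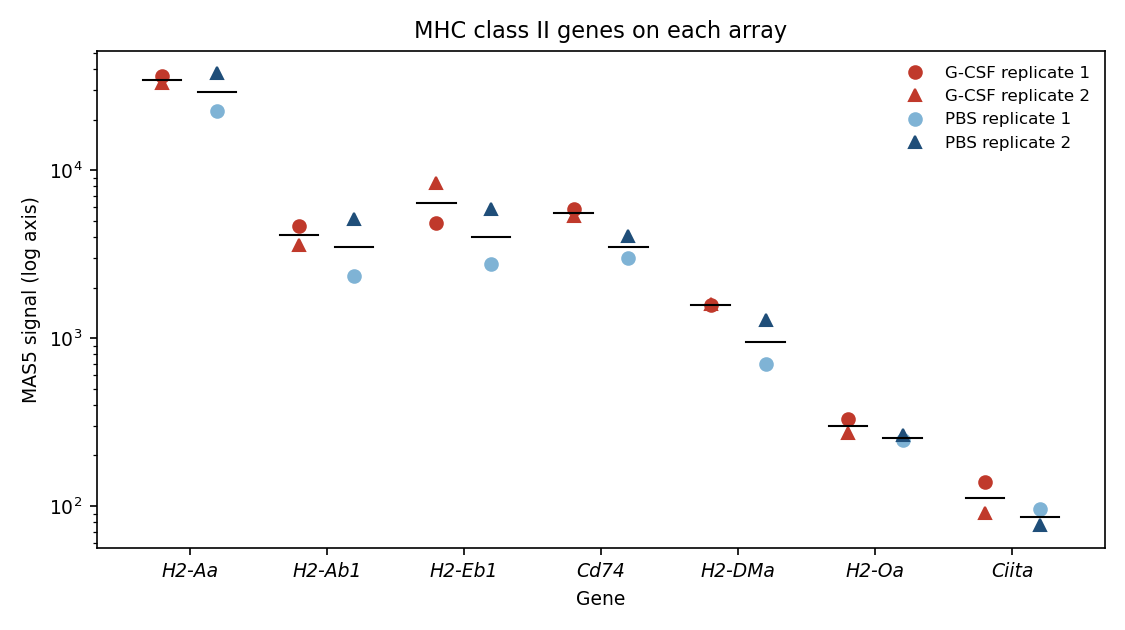
MAS5 signal (log axis) of the 7 members on each array by the probe set with the highest mean signal, G-CSF arrays left and PBS arrays right of each gene, with the geometric mean of each group as a line. Cd74, H2-DMa and H2-Oa have both G-CSF arrays above both PBS arrays, and the other 4 overlap. Heights of different genes are those of different probes and are not to be compared.

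Cd74 was separated between the groups. The signals of the invariant chain were 5847 and 5321 with G-CSF, against 3018 and 4057 with PBS. Both G-CSF arrays exceeded both PBS arrays. The difference was 0.67 ± 0.33, or 1.59-fold, with a 95% interval of −0.18 to 1.52. It was 0.88 against PBS replicate 1 and 0.46 against PBS replicate 2.

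For H2-DMa and H2-Oa, genes of peptide exchange, the probe sets with the highest signal also separated the groups. Those of the β chains H2-DMb2 and H2-Ob, given below, overlapped. H2-DMa, the α chain of the exchange catalyst H2-DM, had 1574 and 1586 with G-CSF, against 704 and 1273 with PBS. The G-CSF arrays were nearly equal, and both PBS arrays lay below them. The difference was 0.72 ± 0.41, or 1.65-fold (1.14 against PBS replicate 1 and 0.31 against PBS replicate 2). A second H2-DMa probe set had 319 and 324 with G-CSF, against 144 and 361 with PBS. It thus overlapped, in the order seen for I-A, with a difference of 0.44.

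H2-Oa, the α chain of the H2-DM inhibitor H2-O, had 330 and 273 with G-CSF, against 247 and 264 with PBS. The groups did not overlap, but the lower G-CSF array was within 10 units of the higher PBS array. The difference was 0.22 ± 0.34 (0.26 against PBS replicate 1 and 0.17 against PBS replicate 2). H2-DMb1 has no value of its own. The 2 probe sets that list it with H2-DMb2 had 404 and 267 with G-CSF against 217 and 537 with PBS for one, and 166 and 233 with G-CSF against 285 and 446 with PBS for the other. The first overlapped, with a difference of −0.06, and the second was lower with G-CSF on both arrays, at −0.79. Neither can be assigned to 1 of the 2 genes.

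Ciita lay close to background. Its strongest probe set had 138 and 91.0 with G-CSF, against 95.9 and 76.7 with PBS. Background was taken as the highest signal among the 27 probe sets for control genes of Bacillus subtilis, which mouse cells lack, and was 86.4 and 63.0 on the G-CSF arrays and 106 and 94.6 on the PBS arrays. Ciita was thus above background on both G-CSF arrays and on neither PBS array. With both PBS signals set to their background, the ratio of geometric means was 1.12-fold, which ignores the spread between arrays and is no lower limit. The raw signals overlapped, and the computed difference was 0.32 ± 0.45, with a 95% interval of −0.83 to 1.46. The other 2 Ciita probe sets did not reach the filter and gave −0.15 and 0.60. The level of this regulator was therefore hardly measurable on these arrays.

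Across the members with a probe set of their own, 7 of 7 differences were above 0, where 55.9% of all tested genes had one above 0. The 2 probe sets that H2-DMb1 shares with H2-DMb2 are not counted here, and both differed below 0 (−0.06 and −0.79). The groups did not overlap for 3 of 7, all higher, against a background of 18.6% higher and 12.1% lower. None of the 7 was both at least 2-fold apart and free of overlap, where the background was 4.04% higher and 1.52% lower. The median difference was 0.32, and it was 0.07 over all tested genes. The member median was the value of Ciita itself, which was below background on both PBS arrays and is also counted in the 7 above 0. Ciita passed the filter on low values through its G-CSF arrays (mean signal 114.5, against 86.3 with PBS, which is below the filter). The 75th percentile filter, which left out Ciita and H2-Oa, gave a median of 0.65 over 5 members. PBS replicate 1 was the lowest array for 6 of 7 members and for 47.0% of all tested genes. Against PBS replicate 1 alone the median was 0.79 (0.19 over all tested genes) with 7 of 7 above 0, and against PBS replicate 2 alone it was 0.17 (0.00 over all tested genes) with 5 of 7 above 0.

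Calls differed with the PBS array left out. Without PBS replicate 2, limma called 5 of 7 members higher with G-CSF, where 22.6% of all genes were called higher and 15.9% lower. The Benjamini-Hochberg adjusted p was then 0.0062 for H2-DMa, 0.0086 for Cd74, 0.016 for H2-Aa, 0.023 for H2-Eb1 and 0.026 for H2-Ab1, and the lone PBS array was assumed to vary like the G-CSF pair. Without PBS replicate 1, limma called 0 of 7 members, with 2.78% of all genes called higher and 1.45% lower, and 1 of the 7 had an unadjusted p below 0.05 (smallest 0.034). H2-Aa and H2-Ab1 were then on the lower side, at −0.13 and −0.33. Without either G-CSF array limma called 0 members, with 0.0492% of all genes called higher without replicate 1 and 0.181% without replicate 2 (0.0% lower in both), and all 7 differences were above 0 (smallest unadjusted p 0.254 without replicate 1 and 0.412 without replicate 2).

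**Figure D2:**
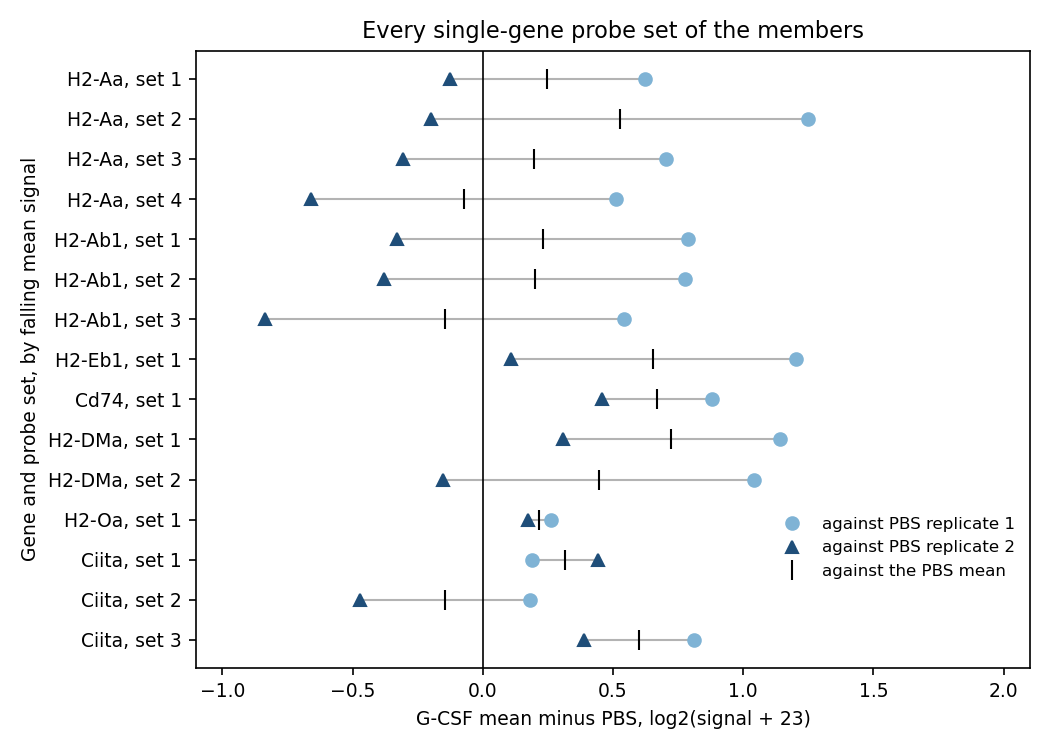
Differences of the G-CSF mean from PBS replicate 1, from PBS replicate 2 and from the PBS mean on the log2(signal + 23) scale, for all 15 single-gene probe sets of the members, 13 of them above the filter. All 15 lie above 0 against PBS replicate 1, and 9 lie below 0 against PBS replicate 2, including all 7 of H2-Aa and H2-Ab1.

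Other genes of class II processing and control were read from a list of 26, of which 25 had a single-gene probe set and 23 were tested. None passed in either direction. Differences were above 0 for 13 and below 0 for 10, with a median of 0.03 against 0.07 over all tested genes. The groups did not overlap for 3 higher and 5 lower genes of the 23, against 18.6% higher and 12.1% lower over all tested genes. Against PBS replicate 1 the median was 0.35, and against PBS replicate 2 it was −0.09.

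Further chains are encoded beside the members in the class II region. H2-Ob, the β chain of H2-O, had signals of 849 and 495 with G-CSF, against 150 and 568 with PBS. PBS replicate 1 was the only low array, and the difference was 1.07 ± 0.68 (1.96 against PBS replicate 1 and 0.19 against PBS replicate 2). H2-DMb2, a second H2-DM β chain, differed by 0.65 ± 0.54 and H2-Eb2 by 0.87 ± 0.72, and both were within 0.05 of PBS replicate 2. In PBS replicate 1 H2-Eb2 had 35.6, below background (106), so its difference starts from the floor. H2-Ea, the gene that is defective in this strain, had 414 and 237 with G-CSF, against 388 and 635 with PBS. The signal of this probe set was above background on all 4 arrays, with a difference of −0.63 ± 0.44, and what its probes detected was not tested. With the mean of all H2-Ea probe sets the difference was −0.014.

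Endosomal genes overlapped between the groups. Ctss, the cathepsin that trims Cd74, had signals of 46277 and 36621 with G-CSF, against 26644 and 44814 with PBS, and a difference of 0.25 ± 0.35. Ifi30, the thiol reductase that opens disulfides of antigens, had 3726 and 4325 with G-CSF, against 2490 and 4769 with PBS (0.22 ± 0.43). Both were lowest in PBS replicate 1. Ctsl differed by 0.56 ± 0.55 (0.03 with the mean of all its probe sets) and Lgmn, asparaginyl endopeptidase, by 0.02 ± 0.57. The ubiquitin ligases Marchf1 and Marchf8, which remove class II molecules from the surface, differed by 0.03 ± 0.44 and −0.06 ± 0.53. Groups overlapped for all 6 of these endosomal genes and ligases. Most genes do so, as only 18.6% of all tested genes were apart on the higher side and 12.1% on the lower side.

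Transcription factors of the X and Y boxes had differences between −0.83 and 0.17. Rfx5, the DNA-binding subunit of the RFX complex, had 629 and 743 with G-CSF, against 789 and 817 with PBS. It was lower on both G-CSF arrays by a small margin (−0.22 ± 0.32). Its partner Rfxank differed by −0.19 ± 0.36, with no overlap, and Rfxap by 0.16 ± 0.34, with overlap. Of the NF-Y subunits, Nfyb had 787 and 649 with G-CSF, against 1645 and 1007 with PBS (−0.83 ± 0.39), whereas Nfya and Nfyc differed by −0.05 ± 0.32 and 0.17 ± 0.38. Creb1, which binds next to the X box, differed by −0.27 ± 0.48. Nfyb was thus the lowest of the list, and its signals were highest in PBS replicate 1.

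On the interferon γ route, by which Ciita is induced in macrophages, directions were mixed. Ifngr2, the signalling chain of the receptor, had 442 and 490 with G-CSF, against 311 and 301 with PBS. The groups did not overlap, and the difference of 0.57 ± 0.32 was nearly the same against either PBS array (0.55 and 0.59), but with the mean of all Ifngr2 probe sets it was 0.14. Jak2, the kinase bound to that chain, differed by 0.34 ± 0.32 (0.35 and 0.33), also without overlap. Irf8, a factor of myeloid and B cell fate, had 3046 and 3448 with G-CSF, against 1623 and 2842 with PBS (0.59 ± 0.40). In the opposite direction, Irf1, an interferon-induced activator of Ciita, had 2073 and 2029 with G-CSF, against 2833 and 2638 with PBS (−0.41 ± 0.31). Ifngr1 and Jak1, the other receptor chain and its kinase, differed by −0.16 ± 0.32 and −0.61 ± 0.46. Ifng and Socs1 lay at background on all 4 arrays.

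**Figure D3:**
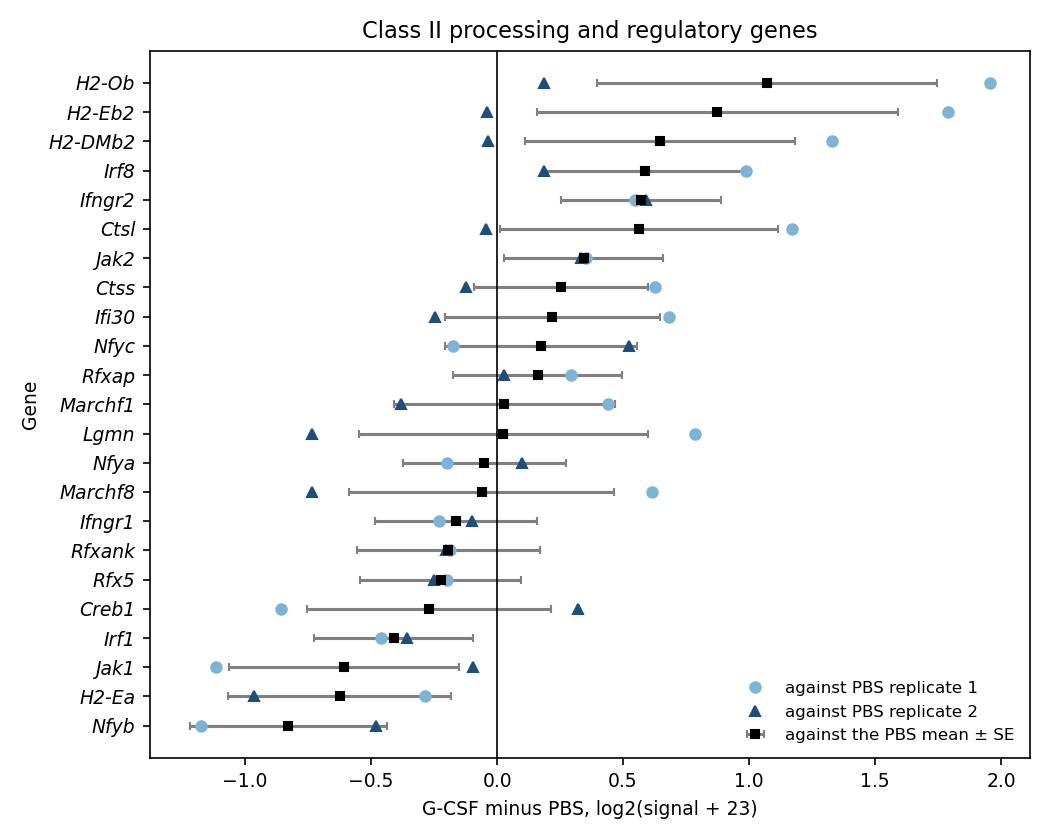
Differences of the 23 tested genes of class II processing and control on the log2(signal + 23) scale, against the PBS mean with the standard error of the fit (squares and bars), against PBS replicate 1 (circles) and against PBS replicate 2 (triangles). H2-Ob is highest at 1.07 and Nfyb lowest at −0.83, and the gap between the PBS arrays is widest for H2-Eb2 and H2-Ob, with Lgmn next. The H2-Eb2 signal was below background in PBS replicate 1.

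The class I pathway shows peptides from within the cell. Of 16 tested class I genes 8 differed above 0, none passed, and the median was −0.02 (0.24 against PBS replicate 1 and −0.20 against PBS replicate 2). Groups did not overlap for 2 higher and 3 lower genes of the 16, with the same background of 18.6% higher and 12.1% lower. Erap1, the peptide trimmer of the endoplasmic reticulum, had 574 and 572 with G-CSF, against 1323 and 797 with PBS (−0.82 ± 0.38). Of 6 tested costimulatory genes 5 differed above 0, none passed, and the median was 0.19. Icosl, a ligand for activated T cells, had 416 and 338 with G-CSF, against 191 and 217 with PBS. It was the only one of the 6 without overlap, and its difference of 0.81 ± 0.34 hardly depended on the PBS array (0.90 and 0.73), but with the mean of all Icosl probe sets it was 0.47.

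Markers of the cells that could carry class II differed between the arrays as follows. Of 13 B cell markers matched from 14, the summed signal was 7223 and 5438 with G-CSF, against 4347 and 6254 with PBS. Their median difference was 0.73 (1.28 against PBS replicate 1 and 0.00 against PBS replicate 2), and 6 did not overlap on the higher side and 1 on the lower side (18.6% higher and 12.1% lower over all tested genes). The 1 on the lower side was Blk (−1.90 ± 1.06). It had 146 and 142 with G-CSF, against 1882 and 181 with PBS, and so made up much of the sum of PBS replicate 1. Cr2, complement receptor 2, had 200.4 and 189 with G-CSF, against 33.2 and 94.7 with PBS, and Blnk, a B cell receptor adaptor, 731 and 827 with G-CSF, against 233 and 600.3 with PBS. Their differences were 1.42 ± 0.52 and 1.00 ± 0.51. In PBS replicates 1 and 2 Cr2 was below and just at background (106 and 94.6), so its difference starts from the floor. Spib and Fcer2a, a B cell factor and the low-affinity IgE receptor, differed by 0.87 ± 0.46 and 0.87 ± 0.47, and with the mean of all its probe sets Fcer2a differed by 0.37. Cr2, Blnk, Spib and Fcer2a were named for the smallest unadjusted limma p of the list. They show the higher side only, and Blk was named for its opposite direction. Of the 13 tested markers, 7 were above PBS replicate 2.

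Macrophage and Kupffer cell markers, 12 matched of 13, summed to 73247 and 68115 with G-CSF, against 38480 and 94055 with PBS. Both G-CSF arrays lay between the PBS arrays, as for I-A. PBS replicate 1 was lowest for all 10 tested markers, against 47.0% of all tested genes. For 9 of them PBS replicate 2 was also highest, an order that 21.8% of all tested genes showed. The median difference was 0.24 (0.84 and −0.47 against PBS replicates 1 and 2). Csf1r, the receptor of macrophage growth factor, differed by 0.28 ± 0.42, C1qb by 0.34 ± 0.47, Adgre1 by 0.28 ± 0.47 and Cd68 by 0.78 ± 0.50. Of all 10 tested markers only Cd68 did not overlap (18.6% higher and 12.1% lower over all tested genes). Timd4 and Marco were at background on all 4 arrays.

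Dendritic cell markers, 14 matched of 15, summed to 6973 and 7127 with G-CSF, against 13577 and 8186 with PBS. The high PBS sum was that of replicate 1, in which Ccr9, also a thymocyte receptor, alone had 8433. Their median difference was 0.02 over 9 tested genes, and 2 did not overlap, both higher (18.6% higher and 12.1% lower over all tested genes). Flt3, the receptor that dendritic cell precursors need, had 253 and 276 with G-CSF, against 129 and 165 with PBS (0.77 ± 0.36), while Clec10a overlapped at 0.63 ± 0.46. Ly75, the other gene without overlap, had 554 and 265 with G-CSF, against 261 and 91.6 with PBS (1.18 ± 0.61). Its lower G-CSF array was close to PBS replicate 1, and PBS replicate 2 was below background (94.6). Xcr1 and Ccr7 were at background on all 4 arrays.

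Monocyte markers, 8 matched of 10, summed to 18907 and 22728 with G-CSF, against 8623 and 20815 with PBS. Fn1, fibronectin, made up much of these sums with signals of 9468 and 11057 with G-CSF, against 4699 and 13388 with PBS. None of the 8 tested markers passed, 4 did not overlap, all higher (18.6% higher and 12.1% lower over all tested genes), and the median difference was 0.82 (1.10 against PBS replicate 1 and 0.58 against PBS replicate 2). Ccr2, the chemokine receptor by which monocytes leave the marrow, had 3082 and 4053 with G-CSF, against 803 and 1403 with PBS (1.71 ± 0.42). F13a1, a coagulation factor subunit, had 1457 and 1936 with G-CSF, against 48.9 and 216 with PBS (3.70 ± 0.64), the lowest of these at background. Vcan, the proteoglycan versican, and Ace, angiotensin-converting enzyme, differed by 1.93 ± 0.37 and 1.18 ± 0.41. In PBS replicate 2 Ace was below background (78.7 against 94.6). Ccr2, F13a1, Vcan and Ace, named for the smallest unadjusted limma p of the list, were higher with G-CSF against either PBS array. The other 4 of the 8 tested markers, Fn1 among them, lay below PBS replicate 2. With the mean of all probe sets of a gene, Ccr2 differed by 0.89, Vcan by 0.50 and Ace by 0.71.

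Markers of several other cell types were also low in PBS replicate 1. Hepatocyte markers summed to 252236 and 244568 with G-CSF, against 163000 and 284135 with PBS, although the labels call the cells bone marrow-derived. Sinusoidal endothelial markers summed to 10368 and 12468 with G-CSF, against 4833 and 13357 with PBS. Neutrophil markers had the widest gap between the groups of the lists read here, with sums of 251155 and 210549 with G-CSF, against 26296 and 8416 with PBS. The part of any of these cell types in the class II values was not tested.

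When each gene was centred on its mean over the 4 arrays, the tested members averaged 0.26 and 0.18 with G-CSF, against −0.51 and 0.07 with PBS, on the log2 scale. The B cell markers averaged 0.36 and 0.12 with G-CSF, against −0.59 and 0.11 with PBS. Blk, which was high in PBS replicate 1, is included in that average. The macrophage markers averaged 0.17 and 0.06 with G-CSF, against −0.82 and 0.58 with PBS. H2-Aa and H2-Ab1 alone averaged 0.25 and −0.01 with G-CSF, against −0.59 and 0.35 with PBS. In PBS replicate 2, I-A thus lay between the B cell and the macrophage average, and in PBS replicate 1 all 3 were low. These are descriptions over 4 arrays that share the same few samples.

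**Figure D4:**
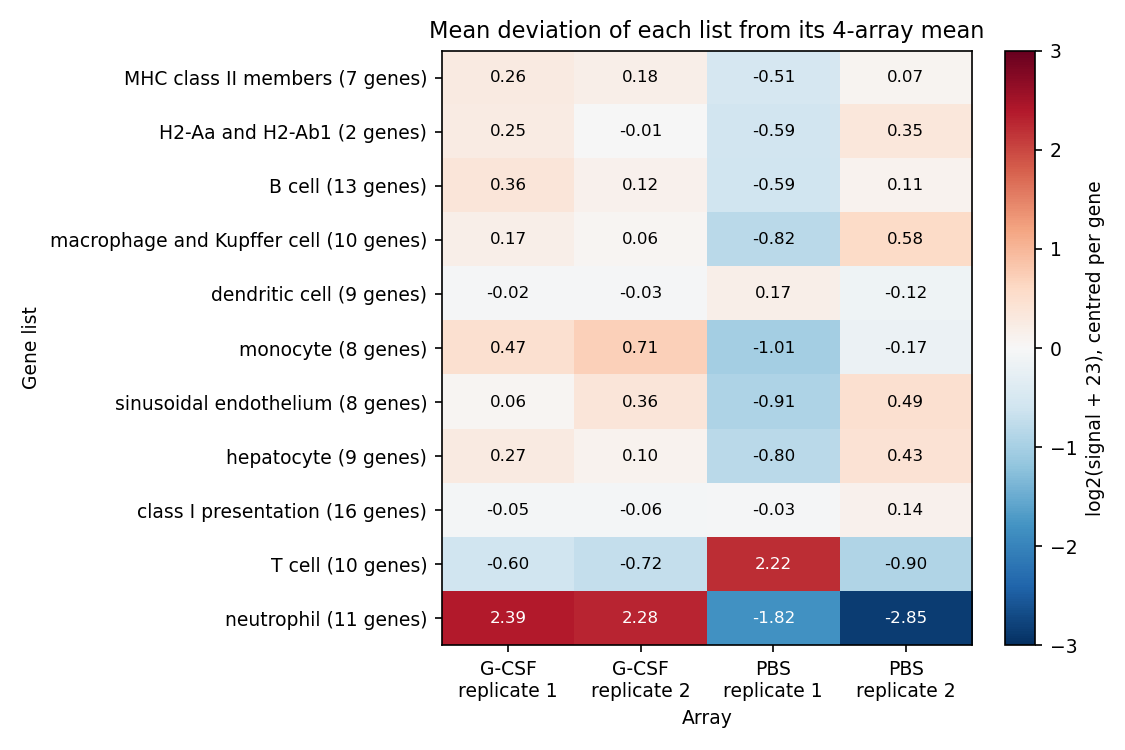
Mean deviation of the tested genes of each list from their own 4-array mean, in log2(signal + 23), with G-CSF arrays in the left columns and PBS arrays in the right. The members and most liver and leukocyte lists are below 0 in PBS replicate 1, where T cell markers stand at 2.22, and the neutrophil list is above 2 with G-CSF and below −1.8 with PBS.

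By root-mean-square distance of centred log2 values over the 4 arrays, the genes nearest to the mean profile of H2-Aa, H2-Ab1, H2-Eb1 and Cd74 were C1galt1c1, Erp29, Atp7a, Slc25a42 and Mcee, at 0.013 to 0.018. Erp29, for example, had 2661 and 2707 with G-CSF, against 1427 and 2647 with PBS. PBS replicate 1 was again low, and the other 3 arrays were level. Differences of these 5 genes were 0.42 to 0.46, and with 4 arrays a close profile is shared by many genes.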

How the data were processed

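Total RNA (40 ng per sample) from 4 samples was measured on 1 Affymetrix mouse array each. The deposited intensity values are linear MAS5 signals scaled per array by the authors, per the submitters' processing notes and the values, whose 2% trimmed mean was 500 on each array. No source used here gives the version of MAS5. Of 45101 probe sets, 64 controls were left out, as were 932 with several genes and 9160 without one. Symbols of the other 34945 came from the platform annotation and were updated by Entrez ID in a GRCm38.p6 gene table that held 34741 of them. The probe set with the highest mean signal stood for its gene, and of 18193 genes the 12187 whose mean exceeded 95.0, the median over non-control probe sets, were tested.

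A pseudocount of 23, the median signal (92.9) divided by 4, was added before log2. G-CSF was compared with PBS by limma 3.58.1 under R 4.3.3 (lmFit, eBayes with a trend, two-sided) with Benjamini-Hochberg adjustment over all tested genes at 0.05. The same limma call was run on simulated data with independent noise. No simulated array was unlike the rest, so that run does not cover a case like PBS replicate 1. Figures were drawn with Python 3.11.15 and matplotlib 3.10.9. No column lacked a sample. The members, gene lists and tests were chosen with earlier results of these data known. The text names all members, the class II processing list, up to 4 genes with the smallest p of other lists, and the 5 genes nearest in profile. Ccr9 is one of the 4 dendritic cell genes of that rule. Blk, Fn1 and the markers named only as lying at background were picked after their values were seen. The number of arrays limits the precision, and no depth applies. Alternatives were 2 other normalizations (quantile, median centring), 2 other pseudocounts (1, 92), 2 other filters (none, 75th percentile), no trend, a robust fit, array weights, other choices of probe set, the replicate number as a block and each array left out. Medians against each PBS array alone were added after seeing the data.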

Additional observations from a re-analysis of the deposited data

How the results depend on the processing

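With 2 arrays per group, H2-Aa and H2-Ab1 turned below 0 without PBS replicate 1, and no member turned under any other array left out. No member was called under quantile normalization, median centring, either pseudocount, either filter, either variance model or array weights. None was called either with averaged probe sets, probe sets restricted to the specific ones or the replicate block. All members tested in these settings stayed above 0, but the 75th percentile filter tested 5 members and the specific probe sets 4. All probe sets of H2-Aa, H2-Ab1 and Cd74 have names ending in _x_at, _s_at or _a_at. Such probe sets do not count as specific, so that check did not cover I-A or Cd74. With each probe set tested on its own, 1 of H2-Aa (−0.07) and 1 of H2-Ab1 (−0.15) were below 0. With each array left out, H2-Aa ran from −0.13 to 0.62, H2-Ab1 from −0.33 to 0.79, H2-Eb1 from 0.11 to 1.20, H2-DMa from 0.31 to 1.14, Cd74 from 0.46 to 0.88, H2-Oa from 0.09 to 0.34, Ciita from 0.07 to 0.56 and the member median from 0.17 to 0.79. The number of genes called higher ran from 6 to 2753, called lower from 0 to 1936, and at least 2-fold apart from 843 to 3356. It was 33 higher with array weights and 11 with specific probe sets only, and 378 genes were 2-fold apart with the 75th percentile filter, against 677. The replicate block gave 89 higher and 3 lower. Same-numbered arrays did not deviate together (r = −0.038 over genes). With 2 arrays per group, 1 of them unlike the rest, this cannot settle whether the numbers pair the arrays. The block moved no call of a member. The cause of these shifts was not tested. Median centring moved the median of all genes by 0.06. Of the other named genes, Lgmn was −0.036 with median centring, Marchf1 −0.027 with quantile normalization and −0.031 with median centring, and Rfxank 0.15 with the mean of all probe sets and 0.52 with specific ones. With the mean of all probe sets H2-Ab1 was 0.09, H2-Ea −0.014, Ifngr2 0.14, Icosl 0.47, Ctsl 0.03, Fcer2a 0.37, Marchf1 0.45, Nfya −0.0046, Slc25a42 0.11, Ccr2 0.89, Vcan 0.50 and Ace 0.71, and H2-DMb2 was 1.34 with specific ones. With each array left out the sign turned for Adgre1 (−0.27 to 0.82), C1qb (−0.26 to 0.94), Creb1 (−0.86 to 0.32), Csf1r (−0.27 to 0.83), Ctsl (−0.045 to 1.17), Ctss (−0.12 to 0.63), H2-DMb2 (−0.035 to 1.33), H2-Eb2 (−0.041 to 1.79), Ifi30 (−0.25 to 0.68), Lgmn (−0.74 to 0.78), Marchf1 (−0.38 to 0.44), Marchf8 (−0.74 to 0.61), Mcee (−0.00066 to 0.85), Nfya (−0.20 to 0.10), Nfyc (−0.18 to 0.52) and Slc25a42 (−0.010 to 0.86).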
